A study of Mus musculus with 8 samples.

Results

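Chemokines are small secreted proteins that steer the movement of leukocytes and stromal cells. They are sorted by the spacing of their leading cysteines into the CC, CXC, XC and CX3C groups, and they act through G protein-coupled receptors named after the same groups. Atypical receptors bind chemokines and take them up without G protein signalling, so they lower the amount in reach of other receptors. In bone marrow, stromal cells and macrophages both secrete chemokines, and these hold blood cell precursors in place or call monocytes and neutrophils out into the blood.

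The mouse genes for chemokines and their receptors were taken as a set: every protein-coding gene whose symbol is a chemokine or receptor symbol with a number (Ccl, Cxcl, Xcl, Cx3cl, Ccr, Cxcr, Xcr, Cx3cr or Ackr). The rule gave 57 genes among 47643 named genes, 36 ligands and 21 receptors. A further 2 genes with such a symbol are not reported here, and 1 symbol of that form is not a protein-coding gene in the table. The rule itself used symbols and no measured value.

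The RNA-seq libraries came from cultured bone marrow mesenchymal stem cells (MSCs) of C57BL/6 mice. There were 2 libraries from controls (WT), labelled wild type and described in the study's methods as littermates with the floxed Mettl3 gene, and 2 from Prx1-cre;Mettl3fl/fl mice (cKO). Mettl3 is the catalytic subunit of the enzyme that writes N6-methyladenosine (m6A) on mRNA, and its exons 2 and 3 are removed by Cre in the limb mesenchyme lineage, where the Prx1 promoter is active, while blood-derived cells of the same culture keep the gene. Another 4 samples of wild type MSCs, 2 m6A immunoprecipitates and 2 inputs, gave 1 list of m6A peaks. The cells of all 8 samples were kept for 2 days in osteogenic medium with 100 nM dexamethasone, 50 µg/ml ascorbic acid and 5 mM β-glycerophosphate. How many animals or cultures stand behind a library is not given in the sources used here, so p-values measure the spread between these libraries, which may be technical.

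The 4 libraries held 23948200 to 34069223 estimated counts over named genes. Mettl3 (ENSMUSG00000022160) did not separate the groups: its level was 17.6 and 16.9 counts per 1000000 (CPM) in WT and 17.5 and 16.3 CPM in cKO, a log2 fold change of -0.03 (SE 0.093, edgeR quasi-likelihood test, Benjamini-Hochberg adjusted p = 0.824). These counts take in exons outside the deleted part, so they do not check the labels. The 2 cKO libraries were much closer to each other (chi-square per degree of freedom 1.82 over genes) than the 2 WT libraries (32.6). Macrophage genes were abundant in these cultures. The 12 macrophage markers summed to 20800 and 25000 CPM in WT and 27100 and 27300 CPM in cKO. Most of this was Lyz2, which was not called (edgeR adjusted p = 0.342). The 13 stromal markers summed to 5480 and 5340 CPM in WT and 4000 and 4050 CPM in cKO. Most of that sum was Col1a1 and Col1a2, which both fell. Of the stromal markers 4 were called higher and 6 lower, Col1a1 and Col1a2 included, so the sum does not stand for the list. Of the 12 macrophage markers, 4 were called higher (Ptprc, C1qa, C1qb and C1qc), 0 lower and 8 not called. Among those not called, Adgre1 stood at 707, 591, 711 and 714 CPM (WT 1, WT 2, cKO 1, cKO 2; edgeR adjusted p = 0.304). Csf1r stood at 1332, 1473, 1406 and 1419 CPM (edgeR adjusted p = 0.927). Of the lymphocyte and neutrophil markers, Cd3e, S100a9 and Mpo were at 0 in every library, while S100a8 had 92 and 96 counts in WT and 19 and 12 in cKO, Camp had 7 to 18 counts and Cd4 2 to 26. In such a mixture, fewer cells of a type and less RNA per cell cannot be told apart.

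Of the 57 genes, 24 passed the filter on low counts and were tested, 15 ligands and 9 receptors. A gene that was high in 1 group only could pass. The other 33 had at most 13 counts in any library, and 10 of them had 0 counts in all 4 (Xcl1, Ccl26, Ccl1, Ccl21a, Ccl21b, Ccl22, Ccl27b, Cxcl17, Ccr6 and Ccr8). A count of 0 allows up to 3 counts, or 0.0881 to 0.125 CPM depending on the library, and this limit covers counting error only. The lymphoid tissue chemokines and their receptors, such as Ccl19, Cxcl13, Ccr7 and Cxcr5, were thus at or near the limit of detection at this depth.

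Which of these genes differed between cKO and WT was asked with edgeR, fitted on all 15327 genes that passed the filter. Over all genes, 30.5% were called at an adjusted p under 0.05, 13.7% higher in cKO and 16.8% lower. Among the 24 tested genes of the set, 6 were higher and 7 lower. Without cKO replicate 1 or without cKO replicate 2, 3 were higher and 7 lower, beside 11.9% and 11.8% of all genes called. Of the 15 ligands, 2 were higher, 6 lower and 7 not called. Of the 9 receptors, 4 were higher, 1 lower and 4 not called. The median log2 fold change was -0.10 over the ligands and 0.31 over the receptors, the latter being the value of Ccr2, a gene of few counts, beside 0.00 over all genes tested (-0.0038). The difference between ligands and receptors was not tested. The whole-table split of calls depended on the scale, with 44.9% of calls higher in cKO on scaled counts and 55.2% on log2(TPM + 0.1), where TPM is transcripts per 1000000. By a rule of 2-fold change and unadjusted p under 0.05, which 10.5% of all genes met, 2 members were higher (Cx3cr1 and Ackr4) and 6 lower (Cxcl1, Cxcl5, Ccl2, Ccl7, Cxcl14 and Ackr3).

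**Figure D1:**
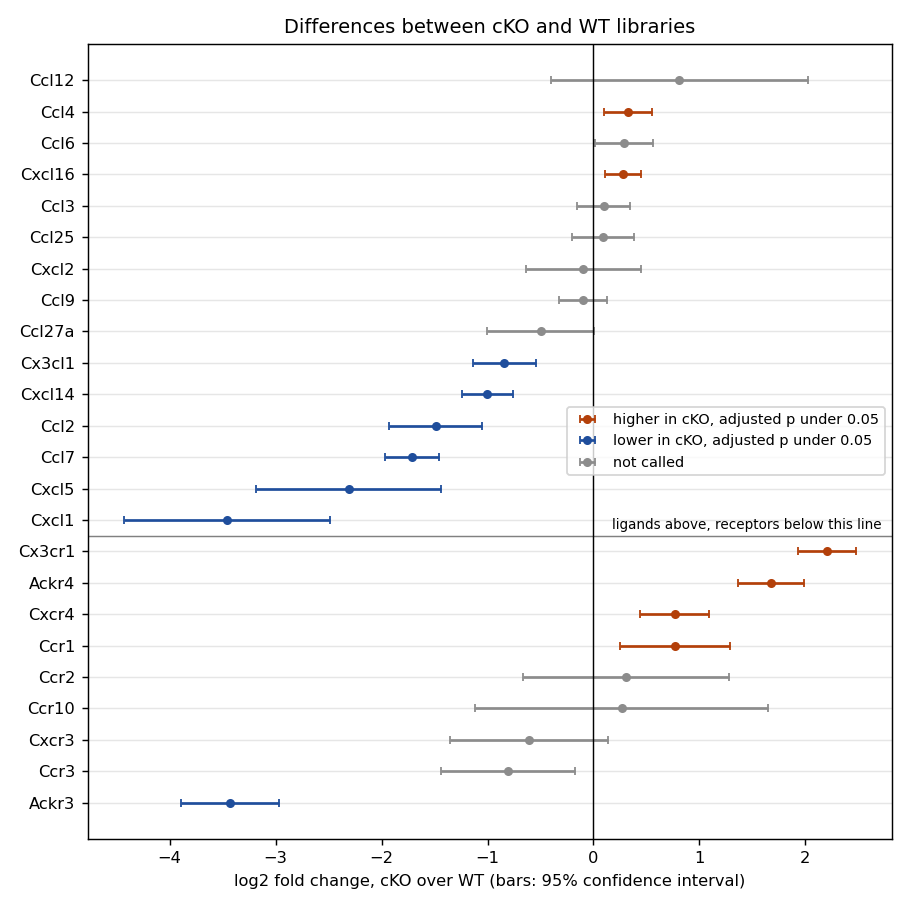
Log2 fold change of cKO over WT for the 24 tested genes, ligands above the line and receptors below it. Points are edgeR estimates from 2 libraries a group and bars 95% confidence intervals. Cxcl1 and Ackr3 lie farthest to the left and Cx3cr1 farthest to the right.

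The neutrophil-attracting CXC ligands act on the receptor Cxcr2. Cxcl1 (GRCm38.p6, chr5:90891245-90893121) stood at 11.3 and 23.6 CPM in WT and at 1.69 and 1.48 CPM in cKO. The groups did not overlap, although the WT libraries were apart from each other. Cxcl1 fell by 3.46 on the log2 scale (SE 0.40, adjusted p = 0.00166), so the WT level was about 11-fold the cKO level. The size of the fall rested on the WT libraries, with a log2 fold change of -2.85 without WT replicate 2 and of -3.90 without WT replicate 1. Cxcl5 (chr5:90759298-90761625) showed the same order, with 3.55 and 6.58 CPM in WT and 0.908 and 1.10 CPM in cKO, a log2 fold change of -2.31 (SE 0.36, adjusted p = 0.00528). Cxcl2 (chr5:90903899-90905938), the next gene of the same cluster, had 2.81 and 3.93 CPM in WT and 3.14 and 3.14 CPM in cKO. Its groups overlapped, and its log2 fold change of -0.10 had a 95% confidence interval from -0.64 to 0.45, which does not reach the interval of Cxcl1 (-4.43 to -2.49). The difference between the 2 genes was not itself tested. Cxcl3 and Cxcl15 had at most 6 counts in a library. Their receptor Cxcr2 had 5 and 9 counts in WT and 0 and 0 in cKO. It did not pass the filter, and without the filter it was called lower by edgeR (adjusted p = 0.0213). That fit gave far smaller adjusted p-values for some genes at the same fold change. For Ackr3 (log2 fold change -3.43) the value was 9.38e-101, against 9.06e-05 with the filter. The call on Cxcr2, from so few counts, is thus weak. The neutrophil marker S100a8 was lower as well, from 2.72 and 3.396 CPM to 0.784 and 0.377 CPM (log2 fold change -2.43, edgeR adjusted p = 0.00475). Camp, the other of the 2 tested neutrophil markers, was not called (log2 fold change -0.26, edgeR adjusted p = 0.739). Of the 8 markers on that list, 4 were at 0 in every library. The part of neutrophils in the level of Cxcr2 was not tested.

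Cxcl1, Cxcl2 and Cxcl3 are printed here because they are neighbours in 1 cluster with like start regions and unlike measured levels. Each line gives the 150 bases before the RefSeq transcription start, 5′ to 3′ (GRCm38.p6, all on the + strand, Cxcl1 at chr5:90891095-90891244, Cxcl2 at chr5:90903749-90903898, Cxcl3 at chr5:90785951-90786100). Capitals mark matches to the NF-kB motif on either strand, which overlap each other, and to TATAAA.
Cxcl1: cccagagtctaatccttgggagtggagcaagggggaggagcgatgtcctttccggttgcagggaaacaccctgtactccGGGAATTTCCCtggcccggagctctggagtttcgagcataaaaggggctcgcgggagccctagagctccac
Cxcl2: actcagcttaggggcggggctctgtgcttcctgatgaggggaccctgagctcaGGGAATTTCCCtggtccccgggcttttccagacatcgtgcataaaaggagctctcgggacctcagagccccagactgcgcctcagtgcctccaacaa
Cxcl3: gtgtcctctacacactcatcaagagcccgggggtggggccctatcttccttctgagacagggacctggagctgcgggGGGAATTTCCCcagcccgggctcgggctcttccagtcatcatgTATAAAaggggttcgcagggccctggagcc
The NF-kB motif began 71 bases before the start in Cxcl1, 97 in Cxcl2 and 73 in Cxcl3. The gene that fell, the gene that was not called and the gene near 0 all held the motif. Its part in their levels was not tested. These matches describe letters and not bound sites.

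The monocyte-attracting CC ligands lie together on chromosome 11, and Ccl2 and Ccl7 among them call Ccr2-bearing monocytes. Ccl2 (chr11:82035577-82037452) stood at 28.2 and 41.0 CPM in WT and at 12.7 and 11.9 CPM in cKO, a log2 fold change of -1.49 (SE 0.18, adjusted p = 0.00205). Ccl7 (chr11:82045712-82047525) stood at 36.9 and 42.4 CPM in WT and at 12.6 and 11.6 CPM in cKO, a log2 fold change of -1.71 (SE 0.11, adjusted p = 0.000127). Both were lower in each cKO library than in either WT library, and the WT level was 2.81-fold the cKO level for Ccl2 and 3.28-fold for Ccl7. Ccl12, the remaining tested gene of this group, had 8 counts in each of the WT libraries and 8 and 18 in cKO (adjusted p = 0.270), and Ccl8 had at most 10 counts. Ccr2, the receptor of Ccl2 and Ccl7, was near the limit of the test, with 14 and 17 counts in WT and 15 and 20 in cKO (log2 fold change 0.31, 95% confidence interval -0.66 to 1.27).

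Of the macrophage inflammatory CC ligands, which macrophages secrete, Ccl9 and Ccl3 were the 2 highest ligands of the set per length. Ccl9 had the highest mean level of all 57 genes, 168 and 235 TPM in WT and 170 and 202 TPM in cKO. Ccl3 followed among the ligands with 87.8 and 99.4 TPM in WT and 110 and 104.8 TPM in cKO, and Ccl6 had 70.0 and 53.8 TPM against 82.3 and 83.2 TPM. None of these 3 genes was called in the test on counts (adjusted p = 0.478, 0.541 and 0.106). Ccl6 was called higher with the replicate block (adjusted p = 0.0385) and without the filter on low counts (0.00503). The latter fit is the one whose small adjusted p-values are described with Cxcr2. The intervals of their log2 fold changes were narrow, -0.32 to 0.13 for Ccl9, -0.16 to 0.35 for Ccl3 and 0.01 to 0.56 for Ccl6. The estimates depended on which WT library was kept. Without WT replicate 1 they were -0.22 for Ccl9, -0.03 for Ccl3 and 0.48 for Ccl6. Without WT replicate 2 they were 0.04, 0.23 and 0.12.

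Ccl4, a relative of Ccl3 made by macrophages, was 13.5 and 12.95 CPM in WT and 16.9 and 16.2 CPM in cKO. The log2 fold change of 0.33 (SE 0.094) passed narrowly with adjusted p = 0.0418. The call was lost with DESeq2 (adjusted p = 0.141), with the replicate block (0.0561) and without either cKO library (0.33 and 0.245). Ccl3 and Ccl4 overlap in the RefSeq annotation, and the library kit does not mark strand. Ccl5, the last member of this group, had at most 9 counts in a library.

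Of the remaining CXC ligands, Cxcl14, which stromal and epithelial cells secrete, stood at 22.2 and 24.9 CPM in WT and 11.5 and 11.9 CPM in cKO. The groups were well apart, with a log2 fold change of -1.001 (SE 0.10, adjusted p = 0.000963). Cxcl16, made as a transmembrane protein that also serves as a scavenger receptor, went the other way by a small amount, from 103 and 114.5 CPM in WT to 130 and 134 CPM in cKO (log2 fold change 0.28, SE 0.071, adjusted p = 0.0283). That call did not hold without either cKO library (adjusted p = 0.194 and 0.263). Cxcr6, the receptor of Cxcl16, had at most 8 counts in a library. The interferon-inducible ligands Cxcl9 and Cxcl10 were not tested. Cxcl9 had 9 and 9 counts in WT and 2 and 3 in cKO. Cxcl10 had 4 and 8 counts in WT and 2 and 5 in cKO, and its groups overlapped.

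Ccl25 and Ccl27a, ligands best known from gut and skin, were detected in every library and not called by edgeR. Ccl25 had 7.31 and 7.54 CPM in WT and 7.68 and 8.13 CPM in cKO (adjusted p = 0.610), and Ccl27a 2.72 and 2.97 CPM against 1.98 and 2.04 CPM (adjusted p = 0.122). With limma, Ccl27a was called lower on log2(TPM + 0.1) (log2 fold change -0.86, adjusted p = 0.0245) and on log2(TPM + 1) (-0.81, adjusted p = 0.0258). Ccl27a overlaps Il11ra1 and has a near-identical copy in Ccl27b, so its counts are uncertain. The receptor of Ccl25, Ccr9, had at most 3 counts in a library. Ccr10, the receptor of Ccl27a, had 19 and 9 counts in WT and 7 and 24 in cKO (adjusted p = 0.761), and it overlaps Cntnap1.

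Cx3cl1 and Cx3cr1 form an exclusive pair: Cx3cl1 is a membrane-bound ligand and Cx3cr1 its receptor on monocytes and macrophages. Cx3cl1 (chr8:94772180-94782427) stood at 11.03 and 12.1 CPM in WT and at 6.73 and 6.21 CPM in cKO, a log2 fold change of -0.84 (SE 0.12, adjusted p = 0.00398). Cx3cr1 (chr9:120048683-120068296) went from 6.68 and 8.03 CPM in WT to 33.4 and 34.3 CPM in cKO. The cKO libraries lay far above both WT libraries, with a 4.61-fold higher level and a log2 fold change of 2.21 (SE 0.11, adjusted p = 6.3e-05). Ligand and receptor thus moved in opposite directions in the same 4 libraries. The log2 fold change of Cx3cr1 lay above those of the 12 macrophage markers, a difference that was not tested. Of these markers, 4 were higher and 0 lower by edgeR (also with DESeq2, and 5 and 0 at an unadjusted p under 0.05), and the largest called change was that of C1qa (log2 fold change 0.50, adjusted p = 0.00317). The part of the macrophages in the rise of Cx3cr1 was not tested.

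Of the CXC receptors, Cxcr4, the receptor that holds blood cell precursors in the marrow, was the highest receptor per length, with 113 and 144 TPM in WT and 234 and 234 TPM in cKO. On scaled counts it stood at 113 and 152.5 CPM in WT and 227 and 224 CPM in cKO, a log2 fold change of 0.77 (SE 0.13, adjusted p = 0.00781). Cxcr4 supplied most of the rise of the receptors as a whole, whose levels summed to 144 and 166 TPM in WT and 274 and 273 TPM in cKO, while those of the ligands summed to 690 and 813 TPM in WT and 631 and 656 TPM in cKO. Cxcr3, receptor of the interferon-inducible ligands, had 2.93 and 2.12 CPM in WT and 1.28 and 2.01 CPM in cKO and was not called (edgeR adjusted p = 0.188). Its log2 fold change of -0.61 depended on the WT libraries, with -0.33 without WT replicate 1 and -0.80 without WT replicate 2.

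Of the CC receptors, Ccr1, a receptor for Ccl3 on macrophages, was higher in cKO. Ccr1 differed between the WT libraries, with 15.1 and 9.16 CPM against 21.1 and 20.5 CPM in cKO (log2 fold change 0.77, SE 0.22, adjusted p = 0.0393). The call on Ccr1 was lost on log2(TPM + 0.1) with limma (adjusted p = 0.0683) and without either cKO library (0.0911 and 0.0766). Ccr3, the eotaxin receptor, stood at 1.95 and 1.80 CPM in WT and 1.11 and 1.04 CPM in cKO and missed the threshold (adjusted p = 0.0603). With edgeR without the filter on low counts Ccr3 was called lower (adjusted p = 0.042), and with DESeq2 it was not called (0.233). The eotaxins Ccl11, Ccl24 and Ccl26 themselves were at 11 counts or fewer.

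The atypical receptors that could be tested moved apart. Ackr3 (chr1:90203980-90215724), which takes up CXC chemokines, stood at 24.7 and 18.5 CPM in WT and 1.90 and 2.10 CPM in cKO. It fell by 3.43 on the log2 scale (SE 0.19, adjusted p = 9.06e-05), a WT level 10.8-fold the cKO level, beside a log2 fold change of -3.46 for Cxcl1. Ackr4 (chr9:104097682-104126643), which takes up Ccl19, Ccl21 and Ccl25, went from 4.91 and 5.16 CPM in WT to 17.4 and 14.9 CPM in cKO, a 3.20-fold rise (log2 fold change 1.68, SE 0.13, adjusted p = 0.000319). Ackr4 lies within Acad11, whose own counts did not differ (33.3, 30.2, 31.4 and 33.2 CPM, adjusted p = 0.856). Ackr1 and Ackr2 had at most 3 counts in a library.

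**Figure D2:**
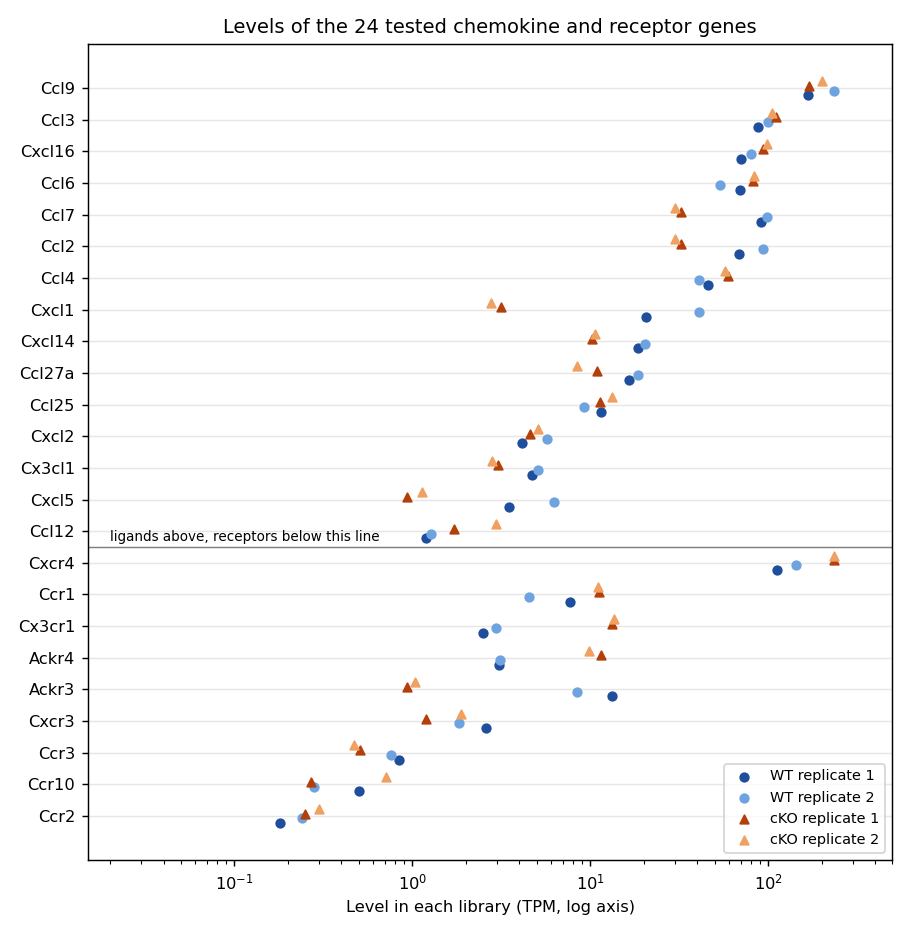
Level of each of the 24 tested genes in TPM on a log axis, with 1 point per library, circles for WT and triangles for cKO. Ligands are above the line and receptors below it, each ordered by mean level. Ccl9 and Cxcr4 top their groups near 200 TPM, and the circles and triangles of Cxcl1, Ackr3 and Cx3cr1 lie far apart.

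The m6A peaks were read on the wild type samples, to see which of these transcripts carried the mark that Mettl3 writes. The list of 10160 peaks gave 11 whose summit lay in a gene of the set, on 6 genes. Of these peaks, 7 lay in coding sequence (CDS), 3 in a 3′UTR and 1 in a 5′UTR. Receptors held most of them. Cx3cr1 carried 5 peaks, a number that 148 of 6417 genes with a summit reached or passed, Cxcr4 carried 2, and Ackr4, Ccr10, Cx3cl1 and Cxcl16 carried 1 each. The peaks of Ackr4, Ccr10 and Cxcl16 had summits that also fell in another gene (Acad11, Cntnap1 and Zmynd15). The list carries no replicate error, and 4 of the 57 genes were not in the mm9 annotation used (Ccl21a, Ccl21b, Ccl27b and Ccl28). Whether a gene without a peak had too little RNA to show one was not tested.

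GGAC, the core of the motif that the enzyme methylates, occurred on the transcript strand in 9 of the 11 peaks. These peaks were 200 to 643 bases long, and so short a motif recurs often by chance over such lengths. The share of all peaks that hold GGAC was not counted, so the number describes letters only. The windows of 30 bases printed here hold the GGAC nearest to the summit in capitals, for genes that changed and whose peaks overlap no other gene, 1 per gene and annotation. Positions are mm9, and sequences run 5′ to 3′ on the strand of the gene.
Cx3cr1, CDS, chr9:119961174-119961203, - strand: accttgcccttctGGACtcactacctcatc
Cx3cr1, 3′UTR, chr9:119960091-119960120, - strand: atcatgtgataaaGGACaactaagtcctca
Cxcr4, CDS, chr1:130486259-130486288, - strand: taaggagcatgacGGACaagtaccggctgc
Cx3cl1, CDS, chr8:97303704-97303733, + strand: caggaggccagggGGACcatggggacttcc
In the CDS peak of Cx3cr1 shown, the A of GGAC lay 1 base from the summit, and in the others shown it lay 18 to 33 bases away. In the 5 peaks with GGAC that are not shown, the distance was 11 and 16 bases in Cx3cr1, 123 in Cxcr4, 101 in Ackr4 and 146 in Ccr10, and 1 peak of Cx3cr1 and that of Cxcl16 held no GGAC.

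The single peak of Cx3cl1 had the highest fold enrichment of the 11, 5.03, above 68.3% of all peaks (−log10 q 22.6, pileup of 65 fragments), and lay 768 nucleotides before the stop codon. The peaks of Cx3cr1 were many but low in fold, 2.04 to 2.96, and stretched from 799 nucleotides before the stop codon to 2196 after it. Those of Cxcr4 had folds of 2.02 and 2.64 over pileups of 122 and 147 fragments. The median fold was 2.72 over the 11 peaks and 4.03 over all peaks, while the median pileup was 89 against 60.

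**Figure D3:**
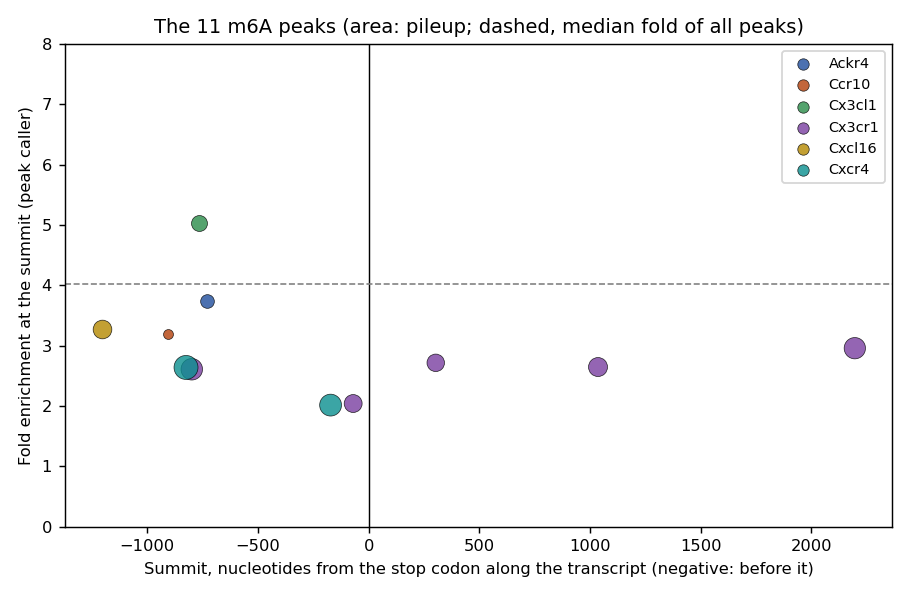
Fold enrichment of the 11 peaks against the distance of the summit from the stop codon along the transcript, in nucleotides. The area of a point grows with the pileup, and the dashed line is the median fold of all peaks, 4.03. The peak of Cx3cl1 lies above it, and those of Cx3cr1 spread over both sides of the stop codon.

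Peaks and expression were then set side by side. Of the 6 genes with a peak, 4 were higher in cKO (Cx3cr1, Ackr4, Cxcr4 and Cxcl16), 1 was lower (Cx3cl1) and 1 was not called (Ccr10). Only 3 of these genes had peaks that touch no other gene: Cx3cr1 and Cxcr4, which were higher, and Cx3cl1, which was lower. Of the 18 tested genes without a peak, 2 were higher (Ccl4 and Ccr1) and 6 lower (Cxcl1, Cxcl5, Ccl2, Ccl7, Cxcl14 and Ackr3). Among all tested protein-coding genes, 22.3% of those with a peak were higher and 13.5% lower, against 9.22% higher and 21.9% lower of those without. The background thus leaned the same way as the set, and no test of the set alone was made. A peak was found on 2 of 15 tested ligands (13.3%), 4 of 9 tested receptors (44.4%) and 42.4% of tested protein-coding genes. These shares count every gene that holds a summit. The ligand Cxcl16 and the receptors Ccr10 and Ackr4 are among them, although their peaks may belong to the overlapping gene. The ligand genes were also shorter, with a median length of 1863 bases against 3273 for the receptors and 4033 for protein-coding genes tested, and the part of length in the peak counts was not tested.

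The start regions of other genes that changed were read for the same motifs. RefSeq promoter windows, 250 bases before to 50 after the start, were at hand for 44 of the 57 genes, 51 windows in all. The NF-kB motif was found in 12 of the 51 windows and in 8.46% of all 32851, AP-1 (TGANTCA) in 9 and in 7.81%, and TATAAA in 14 and in 13.6%. The interferon response motif was found in 3 windows (3.44% of all), and the CRE (TGACGTCA) and the glucocorticoid response motif in 0 (1.79% and 0.475% of all). Of the 4 genes that fell and had a window, Cxcl1 held the NF-kB motif and Cxcl14 the interferon response motif. Ackr3 and Cx3cl1 held TATAAA, beginning at base -8 and -6 from the start. Of the 4 that rose, Ccr1 held the NF-kB motif, and Cxcr4 and Ackr4 held TATAAA. On the strand of the gene these matches began at base -30 in Cxcr4 and -185 in Ackr4. The windows of Ackr3 (chr1:90203830-90203979, + strand) and Cx3cr1 (chr9:120068297-120068446, - strand), the receptors with the greatest fall and rise, are shown for the 150 bases before the start, with TATAAA in capitals.
Ackr3: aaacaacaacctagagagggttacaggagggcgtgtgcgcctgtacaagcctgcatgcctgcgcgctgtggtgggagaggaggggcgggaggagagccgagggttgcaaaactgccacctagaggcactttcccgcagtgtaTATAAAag
Cx3cr1: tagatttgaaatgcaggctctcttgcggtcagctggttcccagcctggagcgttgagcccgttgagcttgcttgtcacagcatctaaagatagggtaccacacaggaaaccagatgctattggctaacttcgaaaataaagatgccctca
No match to any of the motifs was found in the window of Cx3cr1, which says only that these letters are not there. RefSeq promoters of Ccl2, Ccl7, Cxcl5, Ccl4 and Cxcl16 were not analysed here.

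Genes around the chemokine system were counted from lists of known pathway members, and each count is to be read beside the 13.7% of all genes called higher and the 16.8% called lower. Of 15 NF-kB pathway and feedback genes, all tested, 6 were higher and 3 lower in cKO (median log2 fold change 0.21). Rela and Nfkb1, which encode subunits of NF-kB, had the highest levels: Nfkb1 rose from 93.8 and 99.5 CPM to 116 and 119 CPM (log2 fold change 0.28, adjusted p = 0.017), and Rela, at 102.5 and 113.5 CPM in WT and 124.5 and 126 CPM in cKO, was not called (adjusted p = 0.0613). The largest changes were those of Rel (log2 fold change 0.61, adjusted p = 0.00495) and of Nfkbiz, a nuclear cofactor of NF-kB (-0.61, adjusted p = 0.00881).

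Of 15 inflammatory cytokine and cytokine receptor genes, 11 were tested, and 3 of these were higher and 4 lower (median 0.09). Il6, an inflammatory cytokine of stromal cells and macrophages, stood at 8.22 and 10.1 CPM in WT and 0.867 and 0.847 CPM in cKO (log2 fold change -3.41, SE 0.21, adjusted p = 0.000125). Il1rn, which blocks the receptor of interleukin 1, stood at 167 and 209.5 CPM in WT and 48.7 and 49.7 CPM in cKO (log2 fold change -1.93, adjusted p = 0.000111). Csf1, the growth factor of macrophages, rose from 354 and 295.5 CPM to 545 and 541.5 CPM (log2 fold change 0.74, adjusted p = 0.00212). Tnfrsf1a, a receptor of TNF, was level at 240, 254, 256 and 250 CPM (adjusted p = 0.67).

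Of 15 tested interferon-stimulated genes, 0 were higher and 3 lower by edgeR (median -0.37), as with DESeq2, and at an unadjusted p under 0.05 the numbers were 1 and 4. The share called was below that over all genes, 30.5%. Ifit3 fell from 16.2 and 13.1 CPM to 8.83 and 9.07 CPM (log2 fold change -0.71, adjusted p = 0.0102), and Gbp2 had a log2 fold change of -0.50 (adjusted p = 0.0405). Irf9, a subunit of an interferon-activated transcription factor, had 43.7 and 35.4 CPM in WT and 48.4 and 47.4 CPM in cKO and was not called (adjusted p = 0.102).

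Of 18 genes that act downstream of chemokine receptors, 7 were higher and 1 lower (median 0.15). Gnai2, the main inhibitory G protein subunit of leukocytes, was level at 862, 850, 889 and 901 CPM (adjusted p = 0.42), as was Rac1 (adjusted p = 0.499). Gnai1, a related subunit, rose from 16.7 and 16.6 CPM to 45.2 and 44.2 CPM (log2 fold change 1.42, adjusted p = 7.24e-05). Rgs2, which switches G protein signals off, fell from 201 and 194 CPM to 47.1 and 49.0 CPM (log2 fold change -2.04, SE 0.063, adjusted p = 1.08e-05). Of the chemokine-processing enzymes, 4 of 7 were tested and 1 was called, the protease Mmp2 (172 and 173.5 CPM in WT, 258 and 259.5 CPM in cKO, log2 fold change 0.58, adjusted p = 0.000777). Mmp14, the highest of that list, had 302 and 241 CPM in WT and 320 and 340 CPM in cKO and was not called (adjusted p = 0.102).

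The 2 tested chemokine-like genes without a chemokine symbol were not called by edgeR or by DESeq2, and 1 had an unadjusted p under 0.05. Pf4, a CXC chemokine of platelets, was uneven between the WT libraries, at 12.1 and 1.80 CPM, with 4.54 and 5.05 CPM in cKO (adjusted p = 0.603). Ccrl2, a receptor that presents the attractant chemerin, had 5.80 and 4.17 CPM in WT and 7.55 and 6.71 CPM in cKO (adjusted p = 0.0942). Ppbp had at most 1 count in a library.

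**Figure D4:**
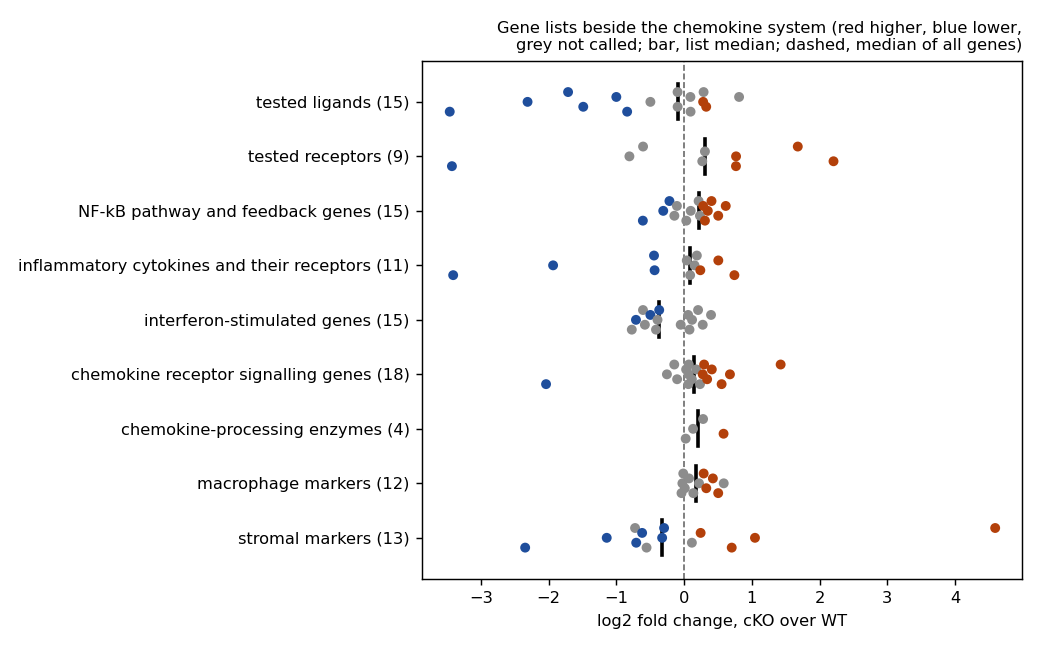
Log2 fold change of cKO over WT for the tested ligands and receptors and for 7 gene lists, with 1 point per gene and the number tested in brackets. Red points were called higher, blue points lower and grey points not called, the bars are list medians and the dashed line the median of all genes tested. Some ligands and 1 receptor lie far to the left, while the macrophage markers stay between -0.04 and 0.59.

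The markers of a cell type did not all move together. Among the 12 macrophage markers, Ptprc, C1qa, C1qb and C1qc were higher, 8 were not called, and Lyz2, the highest, had 10980 and 15930 CPM in WT and 15630 and 15710 CPM in cKO (adjusted p = 0.342). Among the 13 stromal markers 4 were higher (Thy1, Prrx1, Pdgfrb and Pdgfra) and 6 lower. Col1a2 fell from 1862 and 1759 CPM to 811 and 829 CPM (log2 fold change -1.14) and Col1a1 from 1896 and 1921 CPM to 1225 and 1259 CPM (-0.62), while Thy1 rose from 3.93 and 1.91 CPM to 74.7 and 69.4 CPM (4.59), Prrx1 had a log2 fold change of 1.05 and Pdgfrb one of 0.70, and Nt5e fell from 12.3 and 12.3 CPM to 2.85 and 2.04 CPM (-2.35). The part of cell composition in these differences was not tested.

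The other marker lists were low in summed level. Neutrophil markers summed to 3.14 and 4.28 CPM in WT and 1.11 and 0.91 CPM in cKO, with S100a8 lower (the values are given with Cxcr2) and 4 of 8 at 0 in every library. Endothelial markers summed to 3.64 and 3.25 CPM in WT and 17.2 and 14.6 CPM in cKO, through Kdr (log2 fold change 2.14) and Emcn (3.47), while Cldn5 was at 0 and Pecam1 and Cdh5 were under 1 CPM. The lists for T cells, B cells, mast cells, dendritic and natural killer cells, erythroid cells and megakaryocytes had 0 called genes by edgeR and by DESeq2, and 0 at an unadjusted p under 0.05, and summed to 6.27 CPM or less in each library.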

How the data were processed

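The authors mapped RNA-seq reads with HISAT2 2.0.4. The counting tool is not given in the sources used here. The deposited table holds estimated counts per gene and values headed FPKM that sum to about 1000000 per library and so are TPM, and gene length in bases. TopHat and MACS2 are named in the submitters' processing notes, with builds mm10 and mm9. The deposited peak list gives pileup (signal), fold enrichment (a ratio) and −log10 p and q, for 4 samples whose pooling is not stated.

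Here, 89 unnamed entries (0.11% to 0.125% of counts) were dropped, counts were rounded, and edgeR 4.0.16 (TMM, filterByExpr, quasi-likelihood, R 4.3.3) was fitted on 15327 genes with Benjamini-Hochberg adjustment. CPM are TMM-scaled. The script was tested on simulated data. DESeq2 1.42.0 and limma 3.58.1 gave alternatives. With 2 libraries a group an exact permutation test could not go below p = 0.333. Replicate numbers were not taken as pairs: the replicate differences of the 2 groups correlated at 0.028. Summits were placed on GENCODE vM1 (mm9). Gene positions and promoters are from RefSeq (GRCm38.p6). Overlapping genes cannot be told apart without strand.

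Genes were named by rule: members with adjusted p under 0.05 and at least 10 counts in each library of a group, the 10 members highest in TPM, members with a peak, Mettl3, and of each list the 2 highest genes and the 2 with the largest called change. Further members, markers and list genes were named after their values were seen. Members and lists were chosen with earlier results of these data known. Protein sequences were not used here.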

Additional observations from a re-analysis of the deposited data

How the results depend on the processing

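The 7 members called lower kept direction and call under all 11 alternatives, and so did Cx3cr1, Ackr4 and Cxcr4 among those called higher. Ccl4, Cxcl16 and Ccr1 lost their call under 5, 3 and 5 alternatives, never their direction. With the cKO libraries summed into 1, 2012 genes were called in all and 3 members were called higher. Leaving out a library moved the calls over all genes between 1867 (without cKO replicate 2) and 8750 (without WT replicate 1), and the members called higher between 3 (without either cKO library) and 8 (without WT replicate 2). The lone library left in a group was assumed to vary like the others. The replicate block gave 4881 calls over all genes with 6 members higher and 7 lower. It ended the call on Ccl4 (adjusted p = 0.0561), called Ccl6 (0.0385) and changed no other member's call. 4 genes that were not called changed sign when a library was left out: Ccl3 ranged from -0.0344 to 0.23 on the log2 scale, Ccl9 from -0.22 to 0.0404, Cxcl2 from -0.32 to 0.16 and Ccr10 from -0.61 to 0.76. The cause was not tested. On log2(TPM + 1) with limma, where the added 1 shrinks the change of low genes, the log2 fold change was -1.49 for Cxcl5 and -2.55 for Ackr3. Members with a peak numbered 5 at −log10 q of at least 5 and 6 under the other overlap rules. Depth limits the 33 genes that could not be tested.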
